A study of Mus musculus with 17 samples.

Results

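The astrocyte transport and coupling genes described here are 9 genes, Slc1a2, Slc1a3, Glul, Gja1, Gjb6, Aqp4, Kcnj10, Slc4a4 and Gfap, chosen by name and found by their gene symbols. All 9 were present among the 36293 genes of the bulk nuclear RNA-seq files and among the 37608 genes of the sNucDrop-seq tables. They were chosen with the outcome of both comparisons of these mice known. Their differences between stressed and control mice are therefore a description, and the number of them that passed a test supports nothing by itself.

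The mice were C57BL/6 males (C57Bl/6J in the methods) without a transgene or a deleted gene. Chronic unpredictable stress (CUS) gave 3 changing stressors a day for 12 days, and control mice lived in another room and were handled every day. The bulk set holds RNA of nuclei from the medial prefrontal cortex (mPFC) of 4 control and 5 CUS mice at postnatal day 90. The sNucDrop-seq set, in which droplets with barcoded beads separate single nuclei, holds the cortex of 4 control and 4 CUS mice at postnatal day 80. The labels put the end of the last stressor 24 h before tissue collection, whereas the methods of the study place the bulk collection after behavioral testing, so the delay of the bulk mice is uncertain.

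Astrocytes take up the glutamate and potassium that active neurons release and pass water and ions to blood vessels through their endfeet. Glutamate enters through sodium-coupled transporters and is turned into glutamine, which returns to neurons. Gap junctions join neighboring astrocytes into a network through which ions and small metabolites spread. Slc1a2 (GLT-1) and Slc1a3 (GLAST) encode the glutamate transporters and Glul the enzyme glutamine synthetase. Gja1 (connexin 43) and Gjb6 (connexin 30) form the gap junctions, Aqp4 is the water channel of the endfeet, Kcnj10 is the inwardly rectifying potassium channel Kir4.1, Slc4a4 is the sodium bicarbonate cotransporter NBCe1, and Gfap is the intermediate filament that marks reactive astrocytes.

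Reads per bulk mouse numbered 26188825 to 30525015 on genes, and 18394 genes entered the test. Of 40000 deposited barcodes, 26699 were kept as nuclei, 1935 to 4235 per mouse, with 4699542 to 12477099 unique molecular identifiers (UMIs) per mouse. The 8 libraries shared 0 to 2 of the kept barcodes per pair. Clustering, with the 9 genes left out of the genes that shaped it, gave 29 classes of nuclei, 23 of them with over 200 nuclei. A single cluster of 1169 nuclei (4.38% of all nuclei) was astrocyte-like. All 24 astrocyte identity genes on a list without any of the 9 genes were enriched in it, and Grin2c, Slc7a10, Gja1, Atp13a4 and Aqp4 led it.

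Gja1 and Slc4a4 were called lower in bulk nuclei of CUS mice (below), and their promoters are printed from RefSeq (GRCm38.p6, the assembly behind mm10), from 250 bases before to 50 bases after the start. Slc4a4 has 2 annotated starts that lie 140706 bases apart, both inside the gene as the bulk files give it. Capitals mark a match to a searched motif, TGANTCA for AP-1 and CCATNTT for the core of YY1, the transcription factor at the center of the study.
Gja1, chr10:56377050-56377349, + strand: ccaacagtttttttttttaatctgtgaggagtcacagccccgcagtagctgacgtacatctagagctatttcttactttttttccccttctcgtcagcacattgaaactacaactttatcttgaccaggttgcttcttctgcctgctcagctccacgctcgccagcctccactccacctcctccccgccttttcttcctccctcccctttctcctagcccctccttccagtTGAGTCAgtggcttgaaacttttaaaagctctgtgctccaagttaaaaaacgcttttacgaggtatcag
Slc4a4 upstream start, chr5:88887010-88887309, + strand: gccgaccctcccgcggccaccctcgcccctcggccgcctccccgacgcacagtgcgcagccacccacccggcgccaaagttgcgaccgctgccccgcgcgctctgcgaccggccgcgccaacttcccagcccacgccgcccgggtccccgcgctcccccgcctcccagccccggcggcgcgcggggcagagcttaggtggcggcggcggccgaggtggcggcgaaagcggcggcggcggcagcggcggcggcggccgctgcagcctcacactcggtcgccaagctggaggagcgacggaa
Slc4a4 downstream start, chr5:89027716-89028015, + strand: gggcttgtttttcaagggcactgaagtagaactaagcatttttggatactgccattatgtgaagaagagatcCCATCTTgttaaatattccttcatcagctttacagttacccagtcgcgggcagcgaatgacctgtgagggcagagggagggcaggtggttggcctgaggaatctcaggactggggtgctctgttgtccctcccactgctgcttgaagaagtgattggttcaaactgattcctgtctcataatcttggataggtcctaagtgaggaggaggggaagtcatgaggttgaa

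The upstream Slc4a4 promoter was 80.0% G and C with 50 CpG dinucleotides, and the downstream one was 48.3% G and C with 3 CpG, against medians of 52.7% and 7 over all 32851 promoters. The match in the Gja1 promoter begins 19 bases before the start, and such a match was found in 7.81% of all promoters. The YY1 core match in the downstream Slc4a4 promoter begins 178 bases before the start, and 16.1% of all promoters held one. On both strands, 9 promoters of 8 of the genes were searched for 5 motifs. The promoter of Aqp4 was not analysed here. The promoters of Gfap and Slc1a3 held a match to TTCNNNGAA, the STAT motif, which 8.30% of all promoters hold. No match was found to the palindromic glucocorticoid response element (0.475% of all promoters) or to the palindromic NFI motif (0.0365%). A match is a description of letters and not a binding site.

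Levels across classes of nuclei were compared in control mice, in CPM, the UMIs of the gene scaled to a fixed total of UMIs of the class. Slc1a3, Gja1, Gjb6 and Aqp4 were far higher in astrocyte-like nuclei than in any other class with over 200 nuclei, Slc1a2 and Slc4a4 were also present in neuronal classes, and Glul and Kcnj10 also in oligodendrocyte-like nuclei. The 9 genes were left out of the clustering, but their partners shaped it, so these levels carry no test.

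**Figure D1:**
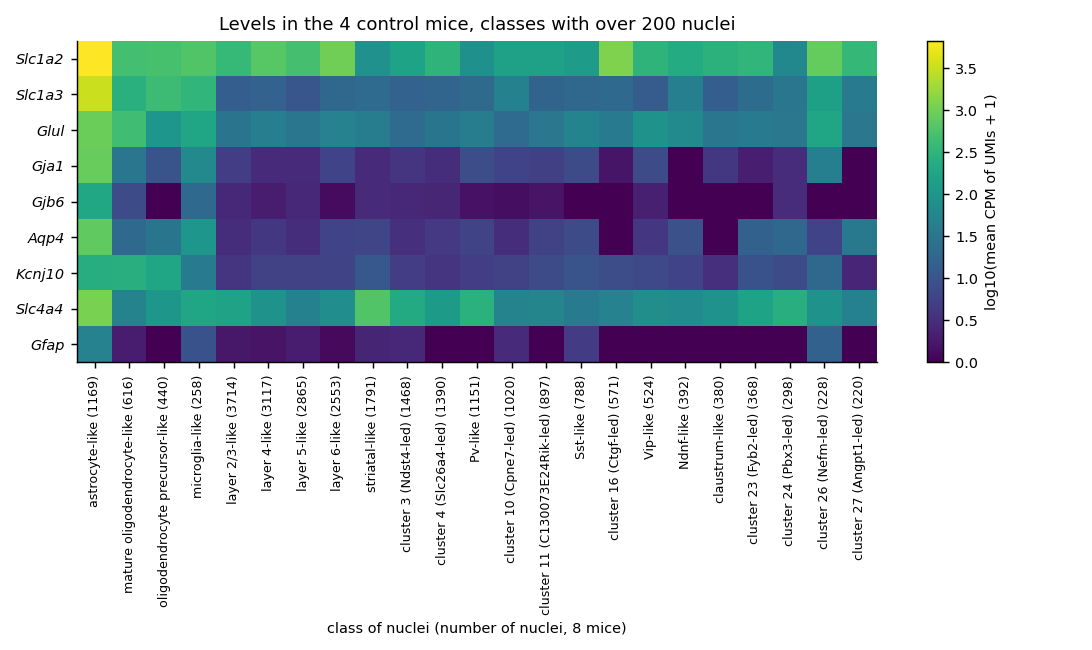
Mean level of each of the 9 genes (rows) in the 4 control mice for the 23 classes with over 200 nuclei (columns, number of nuclei of all 8 mice in brackets), as log10 of CPM + 1. The astrocyte-like column is brightest for 8 genes, Kcnj10 is as bright in mature oligodendrocyte-like nuclei, and the rows of Slc1a2 and Slc4a4 stay bright across neuronal classes.

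Slc1a2 reached 6688 ± 364 CPM (SD, n = 4) in astrocyte-like nuclei. Next stood cluster 16, a neuronal cluster led by Ctgf, with 1216 ± 152 CPM, followed by layer 6-like nuclei with 982 ± 113 CPM, the Nefm-led cluster 26 with 820 ± 255 CPM and layer 4-like nuclei with 679 ± 56.2 CPM. No other class reached the lowest astrocyte-like value. Astrocyte-like nuclei held 26.5% of all Slc1a2 UMIs, and layer 6-like, layer 4-like and layer 5-like neurons held 15.7%, 13.6% and 10.5%. The related transporter Slc1a3 showed 3306 ± 361 CPM in astrocyte-like nuclei and 425 ± 114 CPM in oligodendrocyte precursor-like nuclei, the next class among those with over 200 nuclei. The 83 mural and fibroblast-like nuclei had 915 ± 552 CPM of Slc1a3. Astrocyte-like nuclei held 73.1% of its UMIs.

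Glul stood at 923 ± 82.4 CPM in astrocyte-like nuclei and at 451 ± 213 CPM in mature oligodendrocyte-like nuclei. Of its UMIs, 33.2% were in astrocyte-like nuclei. The level of Kcnj10 in astrocyte-like nuclei, 243 ± 23.7 CPM, did not exceed that of mature oligodendrocyte-like nuclei, 249 ± 41.9 CPM. Oligodendrocyte precursor-like nuclei followed with 177 ± 88.1 CPM. The mouse values of these 3 classes overlapped.

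Gja1 and Aqp4 had the largest shares of their UMIs in astrocyte-like nuclei. Gja1 had 853 ± 65.4 CPM in astrocyte-like nuclei, which held 81.5% of its UMIs. Aqp4 had 787 ± 138 CPM there and 80.7% of its UMIs. Among classes with over 200 nuclei, microglia-like nuclei came next for both, with 61.2 ± 25.2 CPM of Gja1 and 100 ± 79.1 CPM of Aqp4 in control mice. These rest on 19 and 23 UMIs, and microglia-like nuclei of CUS mice held 2 and 1, so no order is read from them. Gjb6 had 190 ± 34.9 CPM in astrocyte-like nuclei. A small class of 83 mural and fibroblast-like nuclei reached 275 ± 58.8 CPM of Gjb6, from 15 UMIs in control mice.

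Slc4a4 had the lowest ratio of the 9 between its level in astrocyte-like nuclei and the median of the other 22 classes with over 200 nuclei, at 12.9, and Slc1a2 followed at 21.0. Astrocyte-like nuclei held 1142 ± 107 CPM, but striatal-like nuclei, a neuronal class of 1791 nuclei, held 609 ± 91.7 CPM and Pv-like interneurons 274 ± 29.7 CPM. Only 17.4% of Slc4a4 UMIs lay in astrocyte-like nuclei, fewer than the 22.8% in striatal-like nuclei, and layer 2/3-like nuclei held 13.8%. The paper describes striatal cells and the claustrum in its nuclei as contamination of the dissected cortex by tissue from outside it. Gfap was sparse, with 48.1 ± 18.3 CPM in control astrocyte-like nuclei and 180 UMIs in all nuclei, 125 of them astrocyte-like.

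Shares of nuclei with a UMI were set beside those in neurons, since free RNA in the droplets can give UMIs to any nucleus. A Gja1 UMI was found in 63.5% of astrocyte-like nuclei (median of 1211 UMIs per nucleus) and in 0.862% of layer 2/3-like excitatory neurons (median of 2463 UMIs). For Aqp4 the shares were 48.5% and 0.646%, and for Gfap 7.10% and 0.162%. No expression is read from these neuronal shares of Gja1, Aqp4 and Gfap, and their source was not tested. Slc4a4 was found in 69.9% of astrocyte-like and 28.1% of layer 2/3-like nuclei, and Slc1a2 in 99.3% and 55.9%.

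Ratios to Gja1 were also taken within the nuclei. For each Gja1 UMI, astrocyte-like nuclei held 3.54 Slc1a3 UMIs and layer 2/3-like nuclei 4.47. For Slc1a2 the ratio was 7.22 in astrocyte-like and 118 in layer 2/3-like nuclei, and for Slc4a4 it was 1.31 and 43.4. The 8246 barcodes with under 600 genes, which were not kept as nuclei, had 7.58 Slc1a2 and 1.71 Slc4a4 UMIs per Gja1 UMI, near the astrocyte-like ratios. Over all nuclei outside the named glial and vascular classes, layer 2/3-like nuclei included, the ratios were 113 for Slc1a2 and 35.6 for Slc4a4. The source of the UMIs in layer 2/3-like nuclei was not tested.

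Over the 23 classes, the genes whose levels followed the mean profile of the 9 genes most closely were Cyp4f15 (Pearson r = 0.94 over 23 classes, control mice), Pdlim4 (0.93) and Apoe (0.92). The classes share libraries and differ in depth, and the r is a description. Among the 9 genes themselves, Gja1 and Slc1a3 followed the mean most closely (0.92 each), and Slc4a4 (0.55) and Slc1a2 (0.65) least.

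In bulk mPFC nuclei, the fitted change of all 9 genes was below 0 in CUS mice, with a median log2 fold change of -0.48 against 0.01 over all 18394 genes tested. Of the 9, Gja1, Aqp4 and Slc4a4 (3 genes) passed an FDR of 0.05 in edgeR's quasi-likelihood test, all lower. Over all genes, 2.13% were called lower, and as the genes were chosen with this comparison known, nothing is read from their share. Fewer astrocytes, less RNA per astrocyte and changes in other cells that hold these RNAs cannot be told apart in bulk tissue. Replicates are separate mice.

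**Figure D2:**
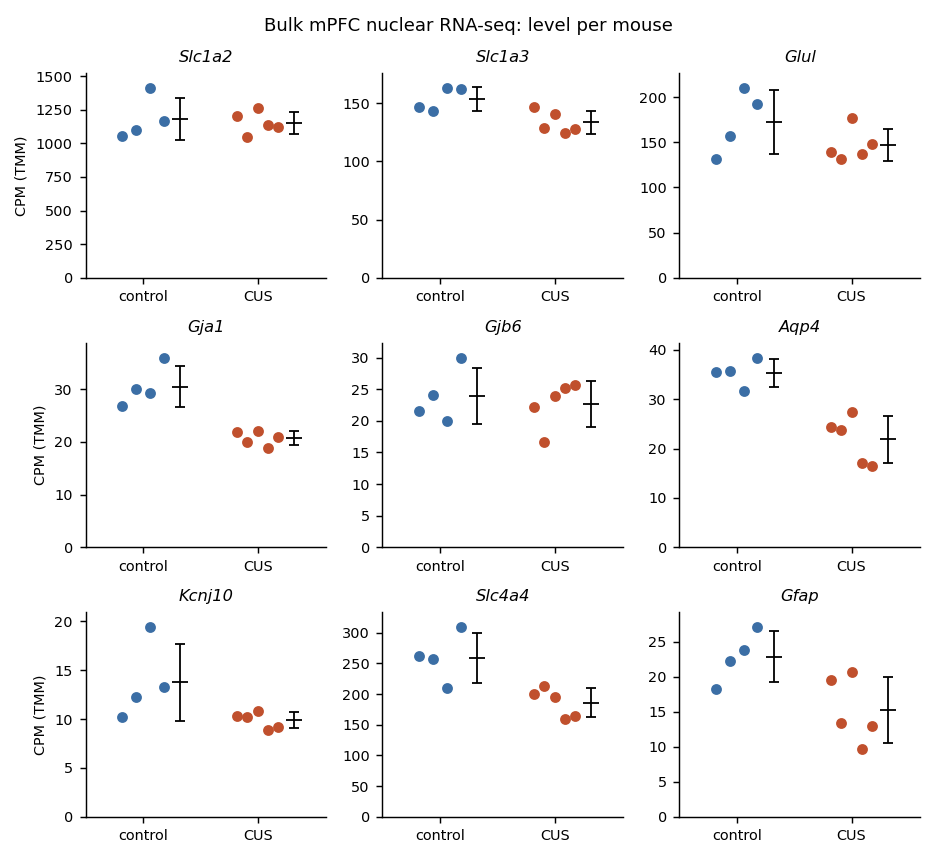
Level of each of the 9 genes in every bulk mPFC sample, in CPM with TMM factors, for 4 control (blue) and 5 CUS mice (orange), with the group mean and SD beside the points in black. All CUS points of Gja1 and Aqp4 lie below all control points, and the points of the other 7 genes overlap.

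Gja1 (ENSMUSG00000050953, chr10:56377330-56402513, mm10) forms the main astrocyte gap junction. Its level was 26.8, 29.98, 29.3 and 35.9 CPM in the control mice and 21.9, 19.9, 22.1, 18.9 and 21.0 CPM in the CUS mice. No CUS mouse reached the lowest control mouse. The fitted level was 1.47-fold lower in CUS mice (log2 fold change -0.56, SE 0.08, FDR 0.00813, edgeR). It was called in the test with each of the 9 mice left out in turn and under every other setting tried.

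Gjb6 (ENSMUSG00000040055, chr14:57123303-57133611), the partner connexin, did not show this. Control mice had 21.6, 24.1, 20.04 and 29.97 CPM and CUS mice 22.1, 16.7, 24.0, 25.1 and 25.7 CPM. The groups overlapped throughout, and the log2 fold change was -0.07 with a 95% interval from -0.33 to 0.18 (FDR 0.791, edgeR).

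Aqp4 (ENSMUSG00000024411, chr18:15389394-15403684) had the largest fitted drop of the 9. Control mice had 35.5, 35.7, 31.7 and 38.4 CPM and CUS mice 24.3, 23.8, 27.4, 17.1 and 16.5 CPM. Every CUS mouse lay below every control mouse, and CUS mice 4 and 5 were lowest. The level was 1.62-fold lower (log2 fold change -0.69, SE 0.13, FDR 0.0171, edgeR). The call was lost without control mouse 2 (FDR 0.0561) and with a replicate block (FDR 0.0524), which matches mice by replicate number alone.

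Gja1 and Aqp4 are thus the 2 of the 9 genes whose groups did not overlap. Over all genes tested, 4.69% had CUS mice all below control mice, and 8.75% had no overlap in either direction.

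Slc4a4 (ENSMUSG00000060961, chr5:88886818-89239653) carries sodium and bicarbonate into or out of the cell. Its level was 262, 257, 209 and 309 CPM in control mice and 199, 213, 195, 159 and 164 CPM in CUS mice. The groups overlapped, because control mouse 3 lay just below CUS mouse 2. The fit put the level 1.39-fold lower in CUS mice (log2 fold change -0.48, SE 0.11, FDR 0.0372, edgeR). This call was lost without any 1 of 7 mice, control mice 1, 2 and 4 and CUS mice 1, 3, 4 and 5, with an FDR of up to 0.101, and with a replicate block (FDR 0.111).

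Kcnj10 (ENSMUSG00000044708, chr1:172341210-172374085), the potassium channel, had 10.2, 12.2, 19.4 and 13.3 CPM in control mice and 10.3, 10.2, 10.8, 8.87 and 9.22 CPM in CUS mice. Control mouse 3 was high and the lowest control mouse lay among the CUS mice. The log2 fold change was -0.48 (SE 0.15), and it did not pass the test (FDR 0.0892, edgeR).

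Gfap (ENSMUSG00000020932, chr11:102887336-102900912) had 18.3, 22.2, 23.8 and 27.0 CPM in control mice and 19.6, 13.4, 20.7, 9.73 and 13.0 CPM in CUS mice. All 5 CUS mice were below the mean of the control mice, but 2 of them were above the lowest control mouse. Its log2 fold change was -0.58 (SE 0.19, FDR 0.0998, edgeR). The noncoding gene Gm26668 on the other strand spans Gfap and had 392% of its reads, and whether the authors' counting used the strand is not given in the sources used here.

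The 3 genes of glutamate uptake and conversion did not pass the test. Slc1a3 (ENSMUSG00000005360, chr15:8634124-8710764) had 146, 143, 163 and 162 CPM in control mice and 147, 128, 140, 124 and 128 CPM in CUS mice, with a log2 fold change of -0.20 (SE 0.07, FDR 0.102, edgeR). The CUS mice all fell short of the control mean, and the highest of them lay among the control mice. Glul (ENSMUSG00000026473, chr1:153899944-153909723) had 132, 156, 210 and 192 CPM in control mice and 139.5, 132, 177, 137 and 148 CPM in CUS mice. Its log2 fold change was -0.23 (SE 0.12, FDR 0.297, edgeR), with control mice spread over the whole range of the CUS mice. Mir8114 and Teddm2 overlap Glul at its start and had 6.58% and 7.31% of its reads.

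Slc1a2 (ENSMUSG00000005089, chr2:102658659-102790784), the main glutamate transporter of the forebrain, had 1059, 1099, 1410 and 1168 CPM in control mice and 1203, 1046, 1260, 1134 and 1123 CPM in CUS mice. The groups lay over each other, and the 95% interval of the log2 fold change ran from -0.21 to 0.13 around -0.04 (FDR 0.842, edgeR).

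Of 20 lists of cell type markers read in the same bulk tissue, some are given here and the others are not reported. The summed levels of the astrocyte, mature oligodendrocyte and excitatory neuron lists each overlapped between the groups. Over all 18394 genes tested, 48.7% had a fitted change below 0, 2.13% were called lower and 1.16% higher. Of the 24 astrocyte identity genes, 22 had a fitted change below 0 and 4 were called lower: Mlc1 (log2 fold change -0.70), Bmpr1b (-0.66), Clu (-0.40) and Slc39a12 (-0.29). Their summed level was 2326 to 2668 CPM in control and 2133 to 2401 CPM in CUS mice. All 14 markers of mature oligodendrocytes, which also express Kcnj10 and Glul, had a fitted change below 0, with 2 called (St18 and Ugt8a). Their sum was 359 to 810 CPM in control and 374 to 470 CPM in CUS mice. The 8 excitatory neuron markers all had a fitted change above 0, with 1 called (Neurod6), and summed to 2365 to 3305 CPM in control and 3237 to 3349 CPM in CUS mice. Of the 11 striatal markers, 10 had a fitted change below 0 (median log2 fold change -0.88) and 1, Pde10a, was called higher. Summed, the 11 stood at 998 to 1517 CPM in control and 1479 to 1719 CPM in CUS mice, with a higher mean in CUS mice. Striatal-like nuclei also held Slc4a4 (above). All 5 inhibitory neuron markers were below 0 and 9 of 11 endothelial markers above 0, with none called. Of the 9 newly formed oligodendrocyte markers, 7 were below 0, but their sum was 1228 to 1485 CPM in control and 1597 to 1771 CPM in CUS mice. No marker of these lists was at 0 in a group, and the part of these differences in the changes of the 9 genes was not tested.

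Set against the summed astrocyte identity genes of the same mouse, Gja1 was 1.10% to 1.39% in control and 0.879% to 0.986% in CUS mice. Aqp4 was 1.19% to 1.53% in control and 0.776% to 1.17% in CUS mice. For Aqp4 the highest CUS mouse (1.175%) and the lowest control mouse (1.188%) lay close together. The share of all genes without overlap was not computed on this scale, so nothing is read from these ranges. Slc4a4 was 7.85% to 11.9% in control and 7.37% to 9.92% in CUS mice. For Slc1a2 the share was 44.7% to 52.8% in control and 48.8% to 54.1% in CUS mice.

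The functional partners of the 9 genes were read from 6 groups of 70 genes in all. Of the 67 tested in bulk, 4 were called lower and 1 higher (7.46% called, against 3.29% of all genes, 2.13% lower and 1.16% higher), with a median log2 fold change of -0.06. In the glutamate and glutamine cycle, 2 of 14 were called, both lower: Slc7a11, the cystine and glutamate exchanger (-0.68, SE 0.15), and Glud1, glutamate dehydrogenase (-0.23, SE 0.05). Slc25a18, the mitochondrial glutamate carrier, had -0.27 and was not called (FDR 0.266, edgeR). Among 13 gap junction and hemichannel genes only Mlc1, a membrane protein of astrocyte junctions, was called, from 23.5 ± 3.68 CPM (SD, n = 4) to 14.4 ± 1.01 CPM (n = 5). The connexins Gjb1 (-0.87, FDR 0.0616, edgeR) and Gjb2 (-0.78, FDR 0.0938) did not pass.

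The group listed for the anchoring of Aqp4 at the endfoot held 8 genes, and none was called in edgeR's test. Agrn, agrin of the basal lamina, had 0.19 and Dtna, dystrobrevin, had -0.16. Of 11 potassium and sodium genes, Slc12a2, the NKCC1 cotransporter, was lower (-0.42, SE 0.08) and Kcnj9, a neuronal potassium channel, was higher (0.31, SE 0.06). Kcnj16, which pairs with Kcnj10, had -0.42 and was not called (FDR 0.0845, edgeR). None of 11 bicarbonate, acid and lactate genes was called, among them Car2 (carbonic anhydrase, -0.45) and Car10 (0.30). None of the 10 tested filament and reactive astrocyte genes was called, with Hspb1 at 0.47 and C3 at -0.31.

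The sNucDrop-seq nuclei give the same genes within astrocyte-like nuclei of other mice, from the cortex and not the punched mPFC. There, no member was called at an FDR of 0.2 in edgeR's quasi-likelihood test, with DESeq2 or with edgeR's likelihood ratio test. Gfap, 1 of the 9 genes, had an unadjusted p under 0.05 in the quasi-likelihood test, as had 153 of all 2685 genes tested. Gfap passed the filter on low counts only through the CUS mice, with 34 UMIs in 517 control and 91 in 652 CUS nuclei, where more than 10% of the number of nuclei was asked for over both groups. Of 2685 genes tested in these nuclei, 0.223% were called. The median log2 fold change was 0.11 without Gfap and 0.18 with it, against -0.00 over all genes tested. In no gene did the groups separate, which 2.83% of all genes tested did.

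**Figure D3:**
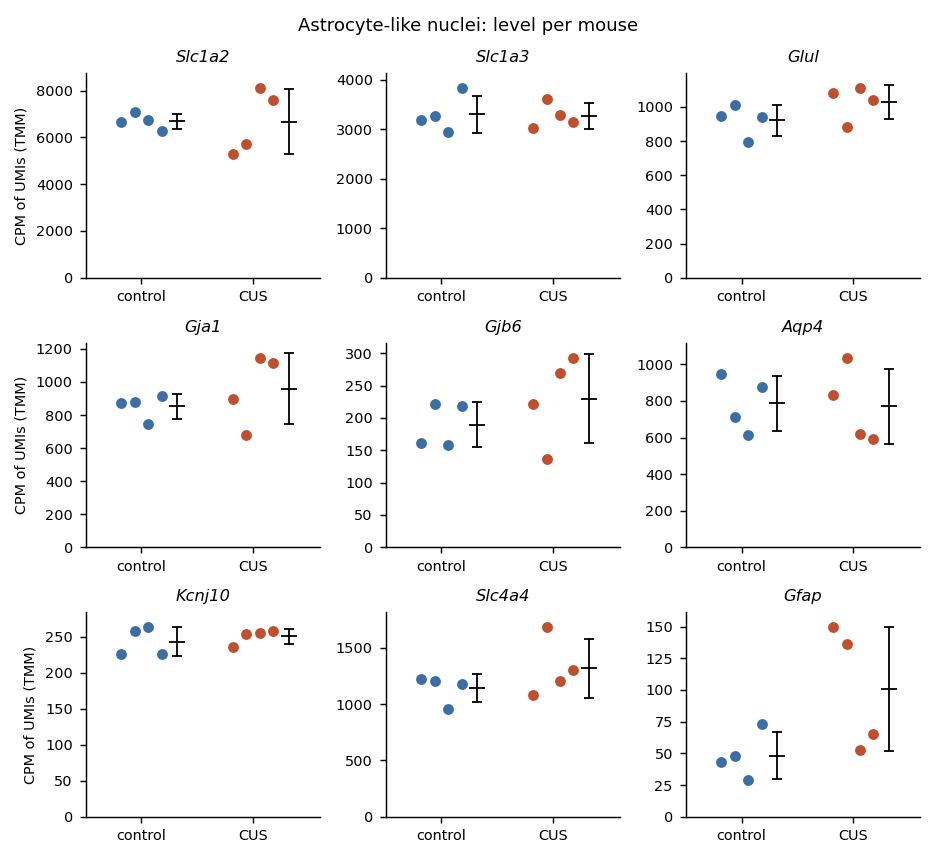
Level of each of the 9 genes summed over the astrocyte-like nuclei of each mouse, in CPM of UMIs with TMM factors, for 4 control (blue) and 4 CUS mice (orange), with the group mean and SD beside the points in black. The groups overlap for all 9 genes, and 2 CUS mice lie above all control mice for Gfap.

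Gja1 had 870, 879, 746 and 916 CPM in control and 896, 681, 1145 and 1114 CPM in CUS mice. CUS mouse 2 was the lowest of all 8 mice and CUS mice 3 and 4 the highest. The log2 fold change was 0.20 with a 95% interval from -0.13 to 0.53 (FDR 0.931, edgeR). In bulk mPFC it was -0.56, in another region and at another age, and the difference between the assays was not tested.

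Aqp4 had 945, 714, 617 and 876 CPM in control and 832, 1036, 621 and 594 CPM in CUS mice. The mice of both groups were mixed, with a log2 fold change of -0.00 and a 95% interval from -0.36 to 0.35 (FDR 1.00, edgeR). The bulk value was -0.69.

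Slc4a4 had 1224, 1203, 961 and 1181 CPM in control and 1079, 1681, 1205 and 1307 CPM in CUS mice. CUS mouse 2 was highest and control mouse 3 lowest, and the log2 fold change was 0.22 (SE 0.16, FDR 0.931, edgeR).

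Gfap had 43.0, 47.8, 28.7 and 73.0 CPM in control and 149, 136, 52.4 and 65.5 CPM in CUS mice. All 4 CUS mice were above the control mean, and 2 of them were above all control mice. The log2 fold change was 1.17 (SE 0.35, FDR 0.353, edgeR), from 125 UMIs in all. As the filter let Gfap pass only through its high group, this change and its FDR support nothing. With control mouse 4, CUS mouse 3 or CUS mouse 4 left out Gfap was called, with an FDR down to 0.0937 over all settings.

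The remaining 5 genes lay between -0.00 and 0.31 on the log2 scale. Slc1a2 had 6264 to 7069 CPM in control and 5302 to 8093 CPM in CUS mice, and Slc1a3 2939 to 3822 and 3028 to 3616 CPM. Glul had 793 to 1008 CPM in control and 881 to 1108 CPM in CUS mice. Gjb6 had 158 to 221 and 136 to 293 CPM, and Kcnj10 226 to 263 and 235 to 258 CPM. Their groups overlapped in every case.

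**Figure D4:**
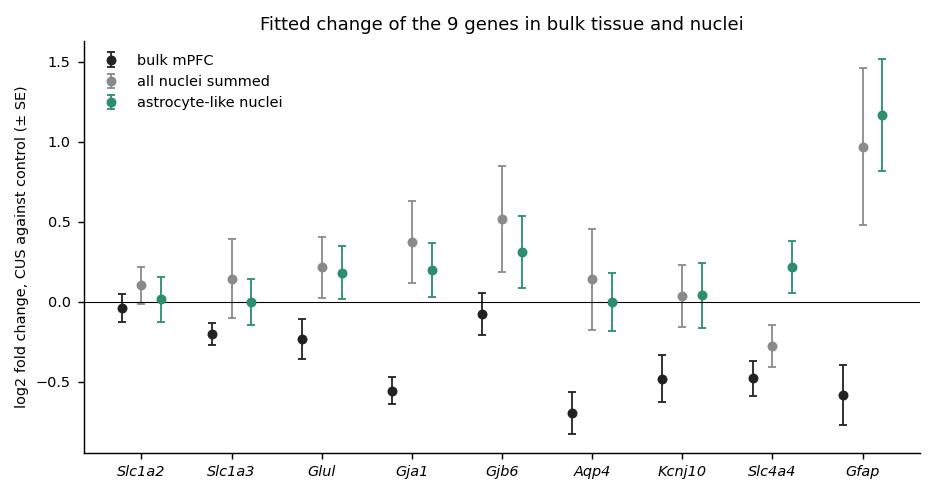
Fitted log2 fold change of CUS against control mice (points) with its SE (bars) for each of the 9 genes in bulk mPFC, in all nuclei summed per mouse and in astrocyte-like nuclei. The bulk points lie below 0 for all 9 genes, the astrocyte-like points lie between -0.00 and 1.17, and Slc4a4 is the only gene whose point for all nuclei summed lies below 0.

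Astrocyte identity and partner genes gave no call in edgeR's test in these nuclei either. None of the 24 identity genes was called, and 19 had a fitted change above 0, while 50.6% of all 2685 genes tested were below 0. Mlc1, lower in bulk, had 0.66 and Clu 0.48 (FDR 0.518 for both, edgeR). None of the 26 partner genes tested was called.

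The share of astrocyte-like nuclei was 3.02%, 4.18%, 3.05% and 6.36% in control mice and 8.43%, 3.27%, 3.78% and 3.95% in CUS mice. CUS mouse 1 stood apart, and the other 3 CUS mice lay within the control range. The difference of means was 0.707 percentage points (4.15% ± 1.57 against 4.86% ± 2.40, SD, n = 4 each, exact permutation test, two-sided, p = 0.629, smallest possible p 0.0286). Without CUS mouse 1 it was -0.485 percentage points.

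With all nuclei of a mouse summed, as in a bulk sample, none of the 9 genes was called in edgeR's test, with DESeq2 or with the likelihood ratio test, at a background of 0.006% of 16669 genes. Only Slc4a4 (1 of 9) had an unadjusted p under 0.05 in edgeR's quasi-likelihood test, as had 1246 of all 16669 genes, so nothing is read from this. Slc4a4 had 167, 194, 161 and 186 CPM in control and 149, 185, 130 and 120.5 CPM in CUS mice, with CUS mouse 2 inside the control range. Its log2 fold change was -0.28 (SE 0.13, FDR 0.661, edgeR). Without CUS mouse 2 the change was -0.41 and was called. Striatal-like nuclei are part of this sum, and their share per mouse is not reported here. CUS mouse 1, with the highest share of astrocyte-like nuclei, also had the highest Gja1 of the 8 mice, 46.0 CPM, and the highest Aqp4, 43.4 CPM.

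Slc4a4 was followed through the other classes, since most of its UMIs lay outside astrocyte-like nuclei. Over the 22 other classes with over 200 nuclei, the 9 genes gave 64 pairs of gene and class with enough UMIs to test, 22 for Slc1a2, 21 for Slc4a4, 13 for Glul, 6 for Slc1a3 and 2 for Kcnj10. Gja1, Gjb6, Aqp4 and Gfap passed in none. A single pair was called at an FDR of 0.2, Slc4a4 in layer 2/3-like nuclei, against 0.126% of all pairs and 1.02% of the 5372 genes tested in that class.

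In layer 2/3-like nuclei (3714 nuclei) Slc4a4 had 142, 182, 150 and 162 CPM in control and 118, 128, 104 and 112 CPM in CUS mice. Every CUS mouse lay below every control mouse, as for 2.89% of the genes tested in that class (5.66% had no overlap in either direction). The means were 159 ± 17.6 and 115 ± 10.1 CPM (SD, n = 4), a log2 fold change of -0.46 (SE 0.13, FDR 0.172, edgeR). The call was lost without TMM factors and without each of 6 mice, control mice 2, 3 and 4 and CUS mice 1, 3 and 4, with an FDR of up to 0.580.

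**Figure D5:**
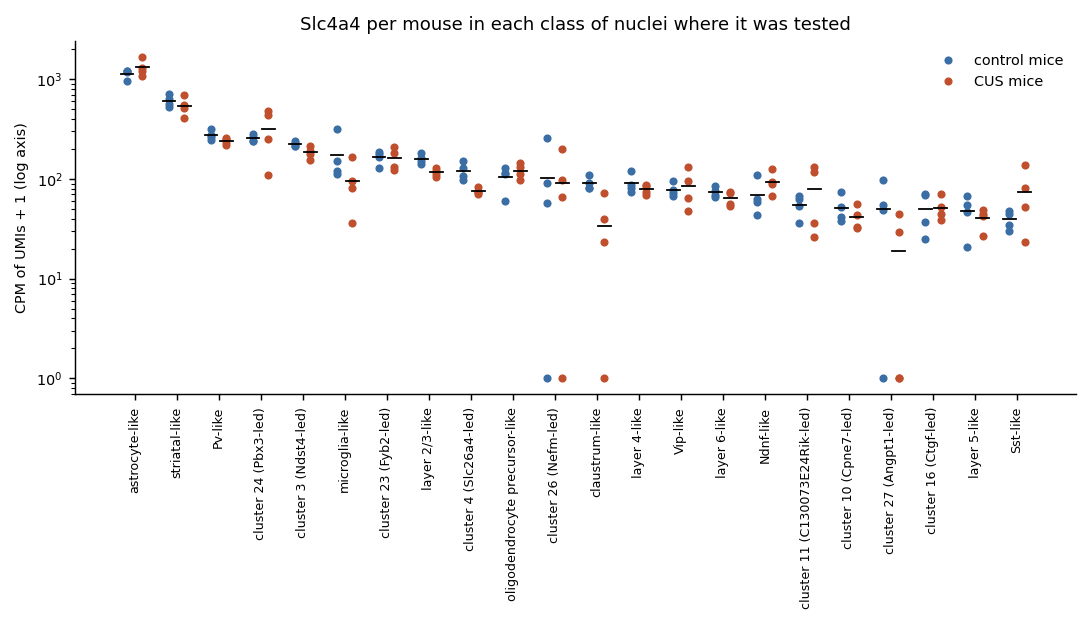
Level of Slc4a4 in each mouse, in CPM of UMIs + 1 on a log axis, for the astrocyte-like class and the 21 other classes in which it was tested, ordered by the control mean, with control mice in blue, CUS mice in orange and bars at group means. CUS points lie below all control points in layer 2/3-like, Slc26a4-led and claustrum-like nuclei (3 of 21 classes, against 1.89% of all pairs of gene and class tested there, and 3.44% without overlap in either direction), and above or among them in astrocyte-like nuclei. The classes come from the same mice and are not independent, so nothing is read from their number.

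Slc26a4-led cluster 4 nuclei had 107, 149, 96.4 and 129 CPM of Slc4a4 in control and 82.6, 70.2, 72.5 and 72.4 CPM in CUS mice, with no overlap (as for 2.42% of the genes tested in that class in this direction and 4.31% in either). The change of -0.66 did not pass (SE 0.20, FDR 0.325, edgeR), and it was called without control mouse 3, without CUS mouse 2 and with a replicate block. Claustrum-like nuclei had 80.7, 108, 80.0 and 89.2 CPM in control and 22.1, 0, 71.4 and 38.4 CPM in CUS mice (log2 fold change -1.37, SE 0.41, FDR 0.437, edgeR), and the change was called without CUS mouse 3. The groups did not overlap there, as for 2.11% of the genes of that class in this direction and 3.44% in either. These values rest on 62 control and 18 CUS UMIs, and whether each group alone would pass the filter was not tested. Over the 21 classes the change was below 0 in 12 and above 0 in 9, with a median of -0.17. In Sst-like interneurons it was 0.78 (SE 0.38, FDR 0.881, edgeR), from 35 control and 59 CUS UMIs. There too, whether each group alone would pass the filter was not tested.

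The change of Slc4a4 in astrocyte-like nuclei was set against that in layer 2/3-like nuclei of the same mice in 1 model. It was higher by 0.68 on the log2 scale in astrocyte-like nuclei (SE 0.15, 95% interval from 0.38 to 0.98, FDR 0.114, edgeR), and 0.358% of the 2234 genes tested were called at an FDR of 0.2. The layer 2/3-like change had been called in the same nuclei, so this is not an independent result. The call was lost without control mouse 2, 3 or 4 or CUS mouse 2 or 4, with a difference of 0.60 to 0.80 over all mice left out. Slc1a2, the only other gene of the 9 tested in both classes, differed by 0.00 with a 95% interval from -0.29 to 0.30 (FDR 0.999, edgeR).

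In the remaining classes, Slc1a2 changed by -0.33 to 0.85 on the log2 scale over 22 classes, 9 below and 13 above 0, with a smallest FDR of 0.862 (edgeR). Glul lay between -0.54 and 0.43 over 13 classes. In mature oligodendrocyte-like nuclei, the other main source of Kcnj10, this gene had 230, 289, 256 and 211 CPM in control and 204, 280, 355 and 404 CPM in CUS mice. CUS mice covered and exceeded the control range there (log2 fold change 0.27, SE 0.27, FDR 1.00, edgeR).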

How the data were processed

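The authors deposited raw read counts per gene for each bulk sample and raw UMI counts per gene and barcode for each sNucDrop-seq sample, without normalization. Per the submitters' processing notes and the methods, reads were mapped to mm10 with STAR. Intronic and exonic reads on the gene's strand were counted in nuclei, and the annotation and the use of strand and introns in bulk are not given in the sources used here. PCR copies were not removed from bulk reads as far as the sources state, so precision from depth covers counting error only. Positions are those of the bulk files.

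Bulk counts were tested with edgeR 4.0.16 in R 4.3.3 (filterByExpr, TMM factors, quasi-likelihood test, Benjamini-Hochberg FDR 0.05 over all genes tested). Nuclei had to show 600 to 5000 genes, less than 5% of UMIs from mitochondria and a Scrublet score of at most 0.2 (scanpy 1.11.5, expected rate 0.1), which removed 15.2% of the barcodes left by the other filters as doublets. Nuclei were clustered with Seurat 5.3.0 (2000 variable genes without the 9 genes, 50 components, resolution 1), and clusters were named from marker lists. UMIs were summed per mouse and class and tested at an FDR of 0.2 on genes with more UMIs than 10% of the class's number of nuclei. CPM (counts per 1000000) are over the counts of all genes, with TMM factors except across classes. The nuclei were prepared in 2 batches, each with 2 control and 2 CUS mice per the methods. The authors report a profound batch effect in their tests of the nuclei and put batch in their model. The labels do not assign mice to the batches, so no batch entered the fits here. Differences between batches remain in the spread between mice, and a missing call in nuclei does not show that a gene was unchanged.

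The 9 genes and the lists were chosen with earlier results of these data known. Partner genes named are the 2 with the largest change in bulk per group and each one called. Of the 10 genes with the profile most like the mean of the 9, the first 3 are given, and the others are not reported here. The main fits did not pair mice by replicate number. Deviations of same-numbered mice correlated at -0.24 to 0.27, which cannot tell whether they shared a batch, a cage or a day. Alternatives were the likelihood ratio test, DESeq2 1.42.0, library sizes without TMM, all genes with a count, a replicate block, other clusterings and nuclei filters, and each mouse left out. In counts simulated from the bulk data (18394 genes), 84% of genes with a log2 change of 1 were recovered with 7.18% false calls, and in those from astrocyte-like nuclei (2685 genes) 95% with 19.8%. In these 2 comparisons, all fitted changes of the 9 genes except that of Gfap in the nuclei were smaller than 1. Recovery of smaller changes was not tested, so these rates do not apply to them.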

Additional observations from a re-analysis of the deposited data

Results flagged for a closer look

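In 56 groups of 4 or 5 mice examined for a mouse far from the others, 4 held one, where chance gives about 1 in 20. The groups share mice and nuclei and are not independent, so nothing is read from this count. The share of astrocyte-like nuclei was 8.43% in CUS mouse 1. In all nuclei summed, Slc1a3 was 177 CPM in the same mouse. In astrocyte-like nuclei, Kcnj10 was 235 CPM in CUS mouse 1, below the other CUS mice, and Slc4a4 was 961 CPM in control mouse 3, below the other control mice.

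The fitted change of Slc4a4 was 0.68 higher on the log2 scale in astrocyte-like than in layer 2/3-like nuclei of the same mice (FDR 0.114, edgeR, called at 0.2). The call was lost without any 1 of 5 of the 8 mice, with an FDR of up to 0.536. It is no independent result, since layer 2/3-like nuclei had already been called. Gfap had opposite directions in the 2 assays. Its log2 fold change was -0.58 in bulk mPFC, where all 5 CUS mice lay below the control mean, and 1.17 in astrocyte-like nuclei, where all 4 CUS mice lay above it. In the nuclei Gfap passed the filter on low counts only through the CUS mice (34 UMIs in control and 91 in CUS mice), so its test there supports nothing. This difference was not tested, and mice, region, age and depth differ between the assays.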

How the results depend on the processing

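Of 444 values of single genes under other settings, which leave out the other classes of nuclei except Slc4a4 in layer 2/3-like nuclei, 373 kept their direction and side of the threshold, 22 lost a call, 10 gained one and 39 changed sign. In bulk, 3 of the 9 genes were called, 5 with the likelihood ratio test (with Kcnj10 and Gfap), 6 with DESeq2 (with Slc1a3 as well), and 1 (Gja1) with a replicate block. The shares of all genes called under these other settings are not reported here, so nothing is read from these counts. Leaving out each mouse gave 1 to 3 calls, with 1 (Gja1) without control mouse 2, and Kcnj10 called without control mouse 1. Without one mouse, Slc1a2 ranged from -0.091 to 0.050 and Gjb6 from -0.16 to 0.062. In astrocyte-like nuclei 0 genes were called, and 0 to 1 with a mouse left out (Gfap). There Slc1a2 was -0.0028 with no low-count filter, -0.0032 with a replicate block, -0.0058 with no doublet filter and -0.0016 with at least 1000 genes per nucleus, and Slc1a3 was 0.0033 with a replicate block, 0.0064 at resolution 0.6, 0.0091 with the 9 genes kept in the clustering and 0.044 with at least 1000 genes. Aqp4 was 0.0032 at resolution 0.6, 0.00068 at 1.5, 0.0060 with the 9 genes kept in the clustering and 0.34 with at least 1000 genes, and Glul was -0.0051 with at least 1000 genes. Mice left out gave -0.082 to 0.11 for Slc1a2, -0.043 to 0.078 for Slc1a3 and -0.14 to 0.11 for Aqp4. Gfap was not tested without the doublet filter. In all nuclei summed, 0 to 1 genes were called (Slc4a4 without CUS mouse 2), and a mouse left out moved Slc1a3 from -0.17 to 0.43, Glul from -0.042 to 0.35, Aqp4 from -0.33 to 0.40 and Kcnj10 from -0.14 to 0.15. The other classes gave 0 calls without TMM factors, 2 with a replicate block (Slc4a4 also in Slc26a4-led nuclei) and 0 to 2 with a mouse left out (with Slc4a4 in Slc26a4-led or claustrum-like nuclei among them). Between astrocyte-like and layer 2/3-like nuclei there were 0 to 1 calls with a mouse left out, and Slc1a2 ranged from -0.027 to 0.036. The share of astrocyte-like nuclei differed by -0.161 percentage points with at least 1000 genes per nucleus and by -0.485 to 1.44 with a mouse left out. The causes of these shifts were not tested.

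The replicate block fit matched mice by replicate number alone, and the block changed no other call of the 9 genes in astrocyte-like nuclei or in all nuclei summed. Depth limits Gfap most, with 125 UMIs in astrocyte-like nuclei.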
